A study of Homo sapiens with 8 samples.

Results

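Neuropeptide Y (NPY) and cholecystokinin (CCK) are peptide transmitters of brain and gut. NPY acts on G protein-coupled receptors, of which NPY1R, NPY2R and NPY5R were followed here, and these signal mainly through Gi proteins that inhibit adenylyl cyclase. DPP4 is a cell-surface peptidase that removes the first amino acids of NPY, and the shortened peptide no longer activates the Y1 receptor well while it still acts on the Y2 and Y5 receptors. CCK is cut from a precursor, sulfated and amidated, and acts on its own receptors, CCKAR and CCKBR, which signal mainly through Gq and phospholipase C. In Ewing sarcoma, a bone and soft tissue tumor driven by a fusion of EWSR1 with an ETS factor such as FLI1, the fusion protein binds runs of the tetranucleotide GGAA. The 6 genes NPY, NPY1R, NPY2R, NPY5R, DPP4 and CCK were picked by symbol from the 60332 rows of the gene table, and each symbol had 1 row. Levels are given as FPKM, the number of sequenced fragments scaled to the length of the transcript and to the size of the library. A gene was tested when its average over all 8 libraries reached 1 FPKM. This held for 15175 genes and for 5 of the 6, all but NPY2R.

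Both RD-ES and SK-N-MC are established Ewing sarcoma cell lines, and their RNA was sequenced in bulk, so that fewer cells expressing a gene and less RNA of it per cell cannot be told apart. Control cells of each line carried an empty lentivirus encoding dCas9-KRAB, a nuclease-dead Cas9 fused to a repressor domain, per the sample labels. The eKD2 cells of each line carried dCas9-KRAB with a guide at the GGAA repeat of the LOXHD1 enhancer. All cells, controls included, had thus been transduced and selected with puromycin, and each was a selected pool and not a single clone. In all groups the multiplicity of infection was 10 and puromycin was given at 1 µg/ml for 3 days. Cells were used at no more than 5 passages after selection. There were 2 libraries in each of the 4 groups, described as biological duplicates, and the labels do not say how far apart the cultures were kept, so the p-values measure the spread between these libraries.

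The targeted gene followed the labels. In RD-ES, LOXHD1 was at 21.4 and 21.2 FPKM without and 1.04 and 1.02 FPKM with the eKD2 guide, and in SK-N-MC at 159 and 169 FPKM without and 11.0 and 12.0 FPKM with it. The estimated depth was 7.47M to 29.9M reads per library, lowest in RD-ES eKD2 replicate 1. All 7 Ewing sarcoma markers examined (CD99, NKX2-2, NR0B1, STEAP1, PRKCB, FLI1 and EWSR1) had a mean of at least 1 FPKM in every group. CD99 was at 482 to 586 FPKM in RD-ES, against 201 to 243 FPKM in SK-N-MC. NR0B1 and PRKCB ran the other way, at 2.38 to 3.84 and 11.0 to 15.4 FPKM in RD-ES, against 51.0 to 59.6 and 112 to 121 FPKM in SK-N-MC. The ranges of NKX2-2, STEAP1, FLI1 and EWSR1 overlapped between lines. The 3 muscle markers MYOD1, MYOG and DES were at or near 0. The lines differed in other markers, and these differences ran alongside every comparison between lines below. PTPRC, a leukocyte gene, was at 0 to 0.0173 FPKM in RD-ES, against 19.2 to 22.6 FPKM in SK-N-MC, while CD3E was at 0 in all libraries, and CD68 was at 1.16 to 4.17 FPKM in RD-ES against 0.642 to 1.27 FPKM in SK-N-MC. The summed level of 4 fibroblast genes (DCN, LUM, PDGFRA and COL1A2) was 5.82 to 7.30 FPKM in RD-ES, against 258 to 286 FPKM in SK-N-MC, carried by DCN, LUM and COL1A2, while PDGFRA was at 0.475 to 1.19 against 0.0499 to 0.415 FPKM. Of the noradrenergic neuroblast genes, TH and DBH were at 0 in all libraries and HAND2 was at 8.50 to 13.0 FPKM. The epithelial genes EPCAM, KRT8, KRT18 and CDH1 summed to 38.6 to 60.5 FPKM, most of it KRT18, and the endothelial genes CDH5 and VWF to 0.150 to 0.611 FPKM. Their part in the results was not tested.

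CCK lay within 1 kb of GGAA repeats in the reference genome and the other 5 genes lay farther from one. Runs of 4 or more uninterrupted GGAA units were searched on both strands of the GRCh37 reference (as GGAA or TTCC), and distances were taken from the middle of a run to the annotated start site of the gene. Among the 14992 tested genes with an annotated start site on a chromosome searched, 54.4% had such a run within 100 kb, and the median distance to the nearest was 88.0 kb. CCK had 4 runs within 100 kb, of 11, 10, 4 and 13 units, and all 4 lay 0.364 to 0.678 kb upstream of its start site. Of these genes 17, or 0.113%, CCK included, had a run at least as near as CCK. Distances use 1 annotated start site per gene. Another annotated CCK start lies within the gene, farther from these runs, and which start these cells used was not measured here. The stretch shown first below is intergenic and runs in the direction of CCK transcription towards the gene. It holds 31 copies of GGAA, which fill 51.9% of its 239 bases. The runs of 11 and 10 units lie within it, the run of 4 units is cut at its upstream end, and the run of 13 units lies beyond that end. DPP4 had a run of 7 units in an intron, 13.2 kb downstream of its start site. NPY had a single run within 100 kb, of 4 units, 31.7 kb downstream. NPY1R and NPY5R are neighbours in opposite orientation on chromosome 4, their nearest run was the same intergenic run of 10 units, and it lay 113 kb from the NPY1R start site and 102 kb from that of NPY5R. The paper lists NPY1R and NPY5R among its candidate direct targets of the fusion. That choice required a measured binding peak of the fusion within 100 kb of the start site. NPY2R had no run within 100 kb. The sequences are those of the reference genome. The lengths of these repeats in RD-ES and SK-N-MC, and binding of the fusion protein, were not measured here. They are printed 5′ to 3′ on the strand that reads GGAA, with GGAA in capitals in the CCK stretch and only the named run in capitals in the others.
CCK, upstream, chr3:42307989-42308227 (minus strand): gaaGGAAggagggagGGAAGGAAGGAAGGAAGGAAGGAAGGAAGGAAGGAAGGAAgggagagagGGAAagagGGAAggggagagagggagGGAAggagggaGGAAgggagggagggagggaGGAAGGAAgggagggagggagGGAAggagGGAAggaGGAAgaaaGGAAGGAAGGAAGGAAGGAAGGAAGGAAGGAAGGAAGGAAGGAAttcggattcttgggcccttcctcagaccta
NPY1R and NPY5R, shared nearest run, chr4:164366701-164366800 (plus strand): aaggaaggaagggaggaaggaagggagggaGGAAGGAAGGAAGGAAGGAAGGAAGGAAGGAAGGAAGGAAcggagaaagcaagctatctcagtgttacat
DPP4, intron, chr2:162917490-162917577 (minus strand): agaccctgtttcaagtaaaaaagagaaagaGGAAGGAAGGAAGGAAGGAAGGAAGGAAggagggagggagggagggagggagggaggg
NPY, downstream, chr7:24355520-24355595 (plus strand): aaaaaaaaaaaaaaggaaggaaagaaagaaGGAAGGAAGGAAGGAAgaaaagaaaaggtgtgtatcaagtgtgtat

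**Figure D1:**
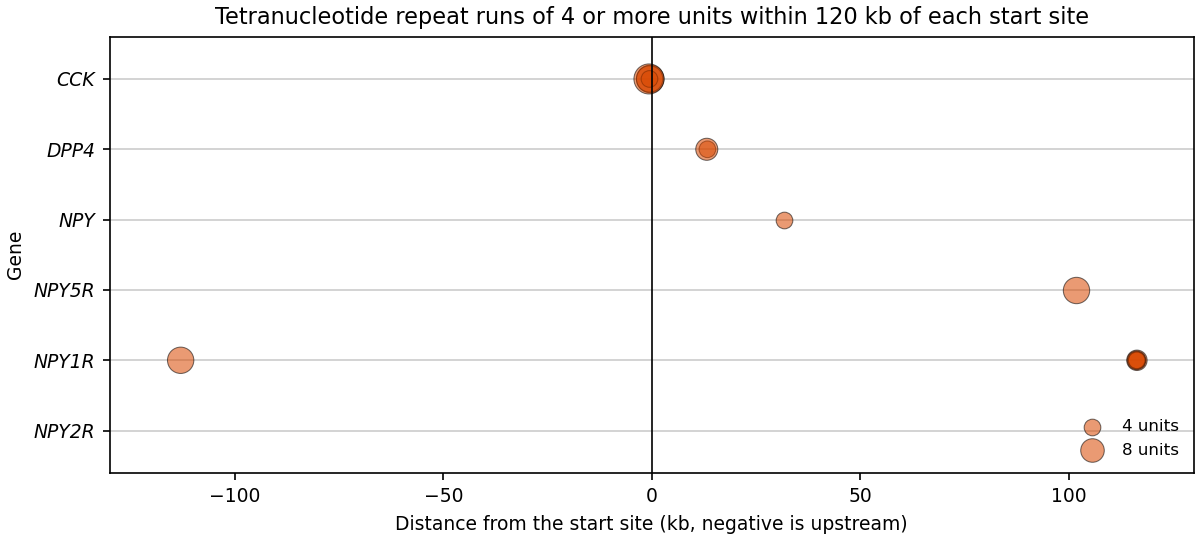
Runs of 4 or more GGAA units within 120 kb of the start site of each gene. The horizontal axis is the distance from the start site in kb, negative upstream in the direction of transcription, and the area of a circle is proportional to the number of units; the 4 runs of CCK overlap at 0.364 to 0.678 kb upstream, while the nearest runs of NPY1R and NPY5R lie beyond 100 kb and NPY2R has none.

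Of both ligands, CCK was by far the more abundant. CCK (chr3:42299317-42307677, minus strand) was at 156 and 190 FPKM in the RD-ES controls and at 141 and 151 FPKM with eKD2 in that line. In SK-N-MC the controls were at 370 and 398 FPKM and the eKD2 libraries at 404 and 432 FPKM. Every SK-N-MC library was thus above every RD-ES library. Its mean level per line was above that of 94.9% of tested genes for RD-ES and of 98.5% for SK-N-MC, and it rested on roughly 1378 to 14434 reads per library. CCK overlaps an antisense long noncoding RNA, ENSG00000281160, over 671 exonic bases, and the library kit did not keep strand, so reads in the overlap cannot be assigned to either with certainty.

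NPY (chr7:24323807-24331481, plus strand) was at 5.35 and 10.2 FPKM in the RD-ES controls and at 4.44 and 5.08 FPKM with eKD2 in that line. In SK-N-MC the controls were at 13.5 and 10.7 FPKM and the eKD2 libraries at 10.1 and 14.0 FPKM. The highest RD-ES library, control replicate 2, lay just above the lowest SK-N-MC library, eKD2 replicate 1, so the lines overlapped when control and eKD2 libraries were pooled. CCK exceeded NPY by 18.6 to 31.8 times in the RD-ES libraries and by 27.5 to 40.0 times in the SK-N-MC libraries, on the per-length FPKM scale. The main NPY transcript has only 555 bases, so NPY rested on few reads, from about 11.8 to 143 per library, and counting error alone was larger for it than for CCK.

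Among the NPY receptors, NPY1R was the most abundant in each library, NPY5R came second and NPY2R was not detected beyond a single read. NPY1R, the Y1 receptor (chr4:164245114-164265984, minus strand), was at 14.4 and 11.7 FPKM in the RD-ES controls and at 14.9 and 10.5 FPKM with eKD2 in that line. In SK-N-MC the controls were at 54.9 and 53.4 FPKM and the eKD2 libraries at 59.2 and 61.3 FPKM. The lowest SK-N-MC library stood well above the highest RD-ES library. NPY5R, the Y5 receptor (chr4:164265044-164273086, plus strand), was at 2.37 and 1.87 FPKM in the RD-ES controls and at 2.19 and 2.43 FPKM with eKD2 in that line. In SK-N-MC the controls were at 15.0 and 14.0 FPKM and the eKD2 libraries at 12.5 and 10.5 FPKM. The RD-ES values rested on only 27.6 to 59.2 reads per library, those of SK-N-MC on 311 to 758. The lines did not overlap for this receptor either. Within a library NPY1R exceeded NPY5R by 4.32 to 6.80 times in RD-ES and by 3.67 to 5.85 times in SK-N-MC, ranges that overlap. Their annotated exons share 528 bases on opposite strands, and without strand the reads in that overlap cannot be told apart. Across the 8 libraries the log2 levels of NPY1R and NPY5R had a Pearson r of 0.975, and those of NPY1R and CCK 0.968. These values describe mainly the gap between lines, which all 3 genes share.

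NPY2R, the Y2 receptor (chr4:156129788-156138230, plus strand), was listed at 0 in 7 libraries and at 0.00965 FPKM in SK-N-MC control replicate 1, the level of about 1 read at that library's depth. A count of 0 allows up to 3 reads, counting error only. Among the 7 libraries at 0, this would correspond to 0.0353 FPKM in the deepest, SK-N-MC eKD2 replicate 2, and 0.117 FPKM in the shallowest. The lowest NPY5R library, at 1.87 FPKM, lay above these limits, and no fold change is given for NPY2R. DPP4 (chr2:162848755-162930904, minus strand) was low. It was at 1.31 and 1.25 FPKM in the RD-ES controls and at 2.13 and 1.10 FPKM with eKD2 in that line. In SK-N-MC the controls were at 2.08 and 1.86 FPKM and the eKD2 libraries at 1.84 and 1.36 FPKM. The lines overlapped, and the mean of DPP4 was above that of 10.9% of tested genes for RD-ES and of 12.0% for SK-N-MC.

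By mean level the order in RD-ES was CCK, NPY1R, NPY, NPY5R, DPP4 and NPY2R. In that line every NPY1R library was above every NPY library, though 10.5 and 10.2 FPKM at the edges of both ranges lay close, and DPP4 and NPY5R ranges overlapped. In SK-N-MC the order was CCK, NPY1R, NPY5R, NPY, DPP4 and NPY2R, and NPY5R (10.5 to 15.0 FPKM) and NPY (10.1 to 14.0 FPKM) could not be separated by their spread.

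**Figure D2:**
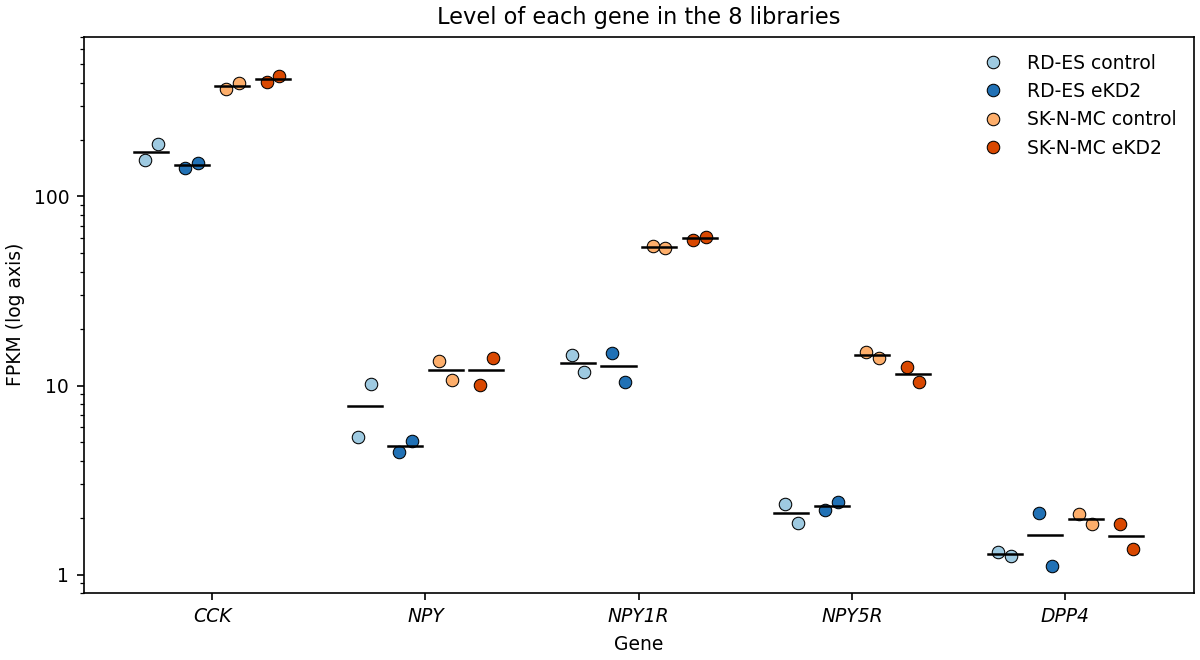
Level of the 5 genes that passed the filter in the 8 libraries. The vertical axis is FPKM on a log axis, each circle is 1 library and each bar the mean of the 2 libraries of a group; CCK, NPY1R and NPY5R are higher in every SK-N-MC library (orange) than in any RD-ES library (blue), with CCK at 370 to 432 against 141 to 190 FPKM. NPY2R, at 0 in 7 libraries, is not drawn.

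The comparison of both lines without the knockdown asked how far the system differed between Ewing sarcoma backgrounds. Among control libraries, CCK, NPY1R and NPY5R were higher in SK-N-MC than in RD-ES by limma on log2(FPKM + 1) with Benjamini-Hochberg adjustment over all tested genes at a threshold of 0.05. These 3 of 5 tested genes stand beside a background of 57.8% of all tested genes called in this comparison, so a call here was common. For NPY5R the mean was 2.12 ± 0.356 FPKM in RD-ES against 14.5 ± 0.664 FPKM in SK-N-MC (SD, n = 2), 6.84-fold, with a log2 difference of 2.32 (SE 0.13, limma adjusted p = 5.25e-05). For NPY1R it was 13.1 ± 1.90 against 54.2 ± 1.05 FPKM (SD, n = 2), 4.14-fold, with a log2 difference of 1.98 (SE 0.17, limma adjusted p = 0.000215). For CCK it was 173 ± 24.0 against 384 ± 20.1 FPKM (SD, n = 2), 2.22-fold, with a log2 difference of 1.15 (SE 0.11, limma adjusted p = 0.000277). All 3 calls held under each of the 16 alternative settings tried.

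NPY and DPP4 did not pass in the control libraries. The mean of NPY was 7.77 ± 3.42 FPKM in RD-ES and 12.1 ± 1.92 FPKM in SK-N-MC (SD, n = 2), a log2 difference of 0.63 with a 95% interval of -0.087 to 1.34 (limma adjusted p = 0.113). This value rested on the pair of RD-ES controls, since it was 1.04 without replicate 2 (limma adjusted p = 0.0219) and 0.22 without replicate 1 (limma adjusted p = 0.487). DPP4 differed by 0.38 with a 95% interval of -0.19 to 0.95 (limma adjusted p = 0.208). The groups did not overlap for any of the 5 genes, as for 79.8% of all tested genes.

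The same comparison among eKD2 libraries called CCK, NPY1R, NPY5R and also NPY, 4 of 5 beside a background of 56.3%. It compares other libraries, but both comparisons come from 1 fit and share its estimate of the spread. NPY was at 4.76 ± 0.451 FPKM in RD-ES and 12.1 ± 2.76 FPKM in SK-N-MC (SD, n = 2), 2.53-fold, with a log2 difference of 1.17 (SE 0.29, limma adjusted p = 0.0159). This call was lost without RD-ES eKD2 replicate 1 (log2 difference 1.09, limma adjusted p = 0.0763) and without SK-N-MC eKD2 replicate 2 (log2 difference 0.95, limma adjusted p = 0.0959). NPY1R was 4.75-fold, NPY5R 4.97-fold and CCK 2.86-fold higher in SK-N-MC, with limma adjusted p of 0.000157, 0.000109 and 0.000108. DPP4 had nearly equal means, 1.62 FPKM in RD-ES and 1.60 FPKM in SK-N-MC, and its log2 difference of 0.014 had a 95% interval of -0.56 to 0.58. The groups did not overlap for the other 4 genes, as for 77.6% of all tested genes.

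Knockdown of the LOXHD1 enhancer was the comparison the libraries were made for. None of the 5 tested genes passed the threshold in either line by limma, beside backgrounds of 0.343% of tested genes called for RD-ES and 0.323% for SK-N-MC. At an unadjusted p under 0.05 none of the 5 passed either, beside 12.3% and 13% of all tested genes. In the same fit LOXHD1 itself fell by 3.46 on the log2 scale in RD-ES (limma adjusted p = 0.000113) and fell by 3.73 in SK-N-MC (limma adjusted p = 3.71e-05). With 2 libraries against 2, an exact permutation test of a single gene cannot go below p = 0.333.

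In RD-ES, the ligands had the lowest unadjusted p. NPY was at 7.77 FPKM in the controls and 4.76 FPKM in eKD2, a log2 difference of -0.55 with a 95% interval of -1.27 to 0.16 (limma adjusted p = 0.511). CCK was at 173 and 146 FPKM, a difference of -0.24 with an interval of -0.49 to 0.020 (limma adjusted p = 0.440). Without RD-ES control replicate 1 these differences were -0.96 for NPY and -0.38 for CCK, and without replicate 2 they were -0.14 and -0.095, none past the threshold. Both eKD2 libraries lay below both controls for each, as the groups did not overlap for 39.3% of all tested genes. NPY1R (-0.054, interval -0.46 to 0.36), NPY5R (0.088, interval -0.24 to 0.41) and DPP4 (0.17, interval -0.40 to 0.74) overlapped between groups.

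In SK-N-MC, NPY5R came closest to a difference. Its controls at 15.0 and 14.0 FPKM both lay above eKD2 at 12.5 and 10.5 FPKM, a log2 difference of -0.32 with a 95% interval of -0.64 to 0.0077 (limma adjusted p = 0.392). The groups also did not overlap for DPP4, with eKD2 lower by a log2 difference of -0.20 (interval -0.77 to 0.37), nor for NPY1R and CCK, with eKD2 above control by 0.15 (interval -0.26 to 0.56) and 0.12 (interval -0.13 to 0.38). Such separation was found for 47.3% of all tested genes in this line. NPY had all but equal means, 12.1 FPKM in both groups, and its difference of -0.013 had a wide interval of -0.73 to 0.70.

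The change with eKD2 was also compared between lines. The difference of the eKD2 changes, SK-N-MC minus RD-ES, was 0.36 for CCK with a 95% interval of -0.0028 to 0.72 (limma adjusted p = 0.374), with CCK at lower means under eKD2 for RD-ES and at higher ones for SK-N-MC. For NPY5R it was -0.41 with an interval of -0.86 to 0.054 (limma adjusted p = 0.427). None of the 5 genes passed, beside 0.244% of all tested genes, and at an unadjusted p under 0.05 none passed either, beside 13.5%. The intervals of NPY1R (-0.38 to 0.78), NPY (-0.47 to 1.55) and DPP4 (-1.17 to 0.44) were wider still.

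**Figure D3:**
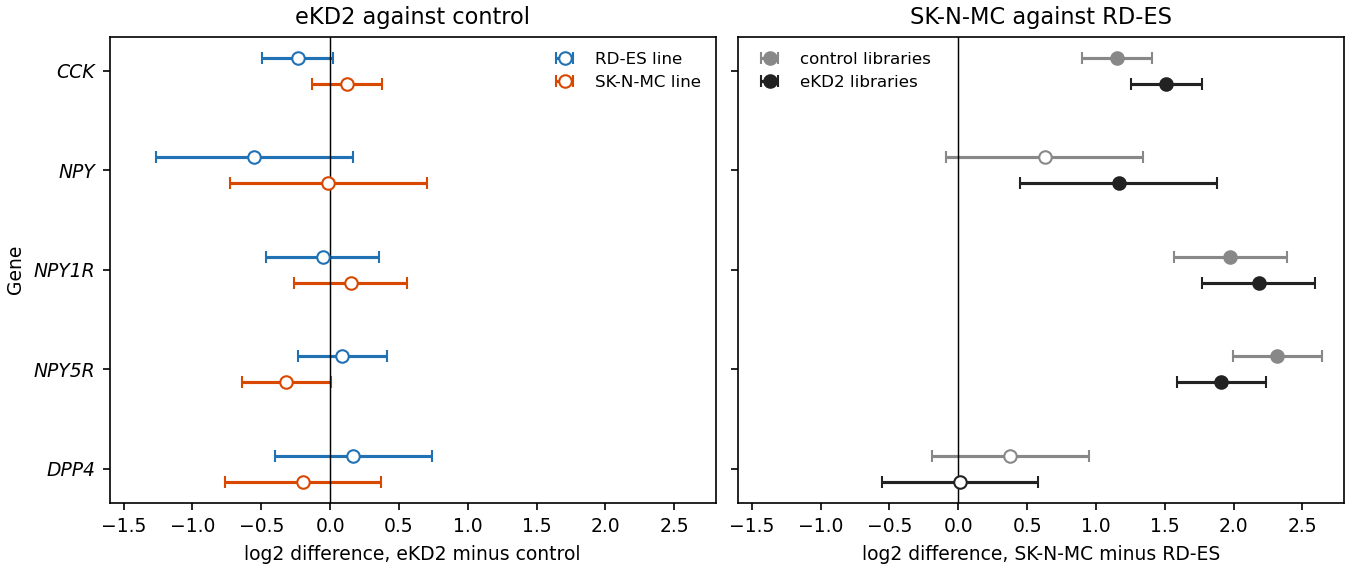
Log2 differences of the 5 tested genes with 95% intervals from limma. The horizontal axis is the difference on the log2(FPKM + 1) scale, on the left eKD2 minus control in each line and on the right SK-N-MC minus RD-ES among control or eKD2 libraries, and a filled circle marks an adjusted p under 0.05. All 10 intervals on the left include 0, while on the right CCK, NPY1R and NPY5R are filled in both comparisons and NPY in the eKD2 libraries only.

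The closest relatives of both peptides were not detected or barely so. PYY, the gut peptide that shares the NPY receptors, reached at most 0.368 FPKM, PPY was at 0 in all libraries, and the receptor NPY4R was at 0 in 7 of 8. Gastrin (GAST), which shares its active end with CCK, was at 0. The receptors CCKAR and CCKBR reached at most 0.0906 and 0.172 FPKM. Thus CCK transcripts were abundant in libraries in which the transcripts of its known receptors were near 0, whereas NPY transcripts occurred together with those of NPY1R and NPY5R.

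The genes around these peptides were followed in a list of 84 genes present in the table, of which 51 were tested. None was called with eKD2 in either line. At an unadjusted p under 0.05, 4 of the 51 were higher and 2 lower in RD-ES, beside 12.3% of all tested genes in either direction. In SK-N-MC 4 were higher and 3 lower, beside 13% in either direction. The list's median log2 difference with eKD2 was 0 for RD-ES beside 0.031 for all tested genes, and 0.035 for SK-N-MC beside -0.0049. Between the control libraries of both lines, 20 were higher and 18 lower in SK-N-MC, beside 31.4% and 26.4% of all tested genes. Of the 20 higher, 7 (XPNPEP2, MME, SCG2, SYT4, ADCY5, NTS and GCG) had a mean under 1 FPKM in the RD-ES controls. So had 1 of the 18 lower, QPCT, in the SK-N-MC controls. The filter itself favoured the calls of XPNPEP2, MME, SCG2, SYT4, NTS and GCG. It did not rest on the other line for ADCY5, with means of 0.999 and 1.10 FPKM in RD-ES control and eKD2. Nor did it for QPCT, with 0.723 and 1.73 FPKM in SK-N-MC control and eKD2. The list's median difference there was 0.021, and that of all tested genes 0.065. Among the eKD2 libraries, 17 were higher and 11 lower, beside 28.2% and 28.1%, and 3 of the 17 higher had a mean under 1 FPKM in RD-ES.

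Genes that turn peptide precursors into active peptides differed between lines. Of 7 tested, 2 were higher and 5 lower in the SK-N-MC controls, beside 31.4% and 26.4% of all tested genes. The higher ones were PAM and PCSK1N, which encodes an inhibitor of the convertase PCSK1 and not an enzyme (log2 difference 1.60, limma adjusted p = 0.0036). PCSK2, a prohormone convertase, was at 33.5 and 34.4 FPKM in the RD-ES controls and 11.8 and 14.3 FPKM in the SK-N-MC controls (log2 difference -1.32, limma adjusted p = 0.00044). CPE, the carboxypeptidase that trims the cut peptides, was at 23.3 to 32.9 FPKM in the RD-ES libraries and 6.62 to 8.77 FPKM in the SK-N-MC libraries, and in the controls its log2 difference was -1.76 (limma adjusted p = 0.00018). PAM, which amidates the end of NPY and of CCK, was higher in the SK-N-MC controls, at 51.4 and 54.0 against 37.6 and 43.7 FPKM (log2 difference 0.37, limma adjusted p = 0.0148). This call was lost with median scaling (adjusted p = 0.0633), without RD-ES control replicate 1 (0.0567) and without SK-N-MC control replicate 2 (0.0772). Thus the line with more CCK mRNA had less PCSK2 and CPE mRNA. TPST1, a tyrosine sulfotransferase of the kind that modifies CCK, was lower in the SK-N-MC controls as well, with a log2 difference of -0.89 (limma adjusted p = 0.00147). PCSK1, the other neuroendocrine convertase, reached at most 0.0472 FPKM.

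Proteins of dense-core granules, in which neuropeptides are stored, were low. Of 7 examined, SCG2 and SYT4 alone passed the filter. CHGA reached at most 0.314 FPKM and CHGB 0.143 FPKM. SCG2 was at 0.581 to 0.938 FPKM in RD-ES, against 1.85 to 3.26 FPKM in SK-N-MC. Both genes passed the filter only through SK-N-MC, so their higher levels there are given with no test.

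Peptidases other than DPP4 were in part far more abundant than it. DPP7, a lysosomal relative, was at 60.8 to 103 FPKM, XPNPEP1, which removes a first residue before proline, at 43.2 to 71.5 FPKM, and PREP at 18.1 to 25.2 FPKM. FAP, the closest relative of DPP4, was at 2.67 and 2.54 FPKM in the RD-ES controls, 0.802 and 1.59 FPKM in RD-ES eKD2, and 8.78 to 10.2 FPKM in SK-N-MC. It was called higher in the SK-N-MC controls (log2 difference 1.61, limma adjusted p = 0.000604), the line in which DCN, LUM and COL1A2, but not PDGFRA, were at higher levels. ENPEP, an aminopeptidase of the cell surface, was at 5.32 and 5.32 FPKM against 33.3 and 30.7 FPKM in the controls (log2 difference 2.39, limma adjusted p = 1.82e-05). Of 10 tested peptidases, 4 were higher and 3 lower in the SK-N-MC controls, beside 31.4% and 26.4% of all tested genes. Of the 4 higher, 2 (XPNPEP2 and MME) passed the filter only through SK-N-MC. Among partners and substrates of DPP4, the adenosine deaminase ADA was at 11.3 to 17.8 FPKM, caveolin CAV1 at 502 to 686 FPKM and the chemokine CXCL12 at 2.37 to 3.32 FPKM.

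Downstream of the receptors, the Gi protein GNAI2 was at 45.0 to 74.3 FPKM and GNAI1 at 7.79 to 28.9 FPKM, and the Gq proteins GNAQ and GNA11 at 17.3 to 37.8 and 26.4 to 41.1 FPKM. GNAI1 was called higher in the SK-N-MC controls by a log2 difference of 1.44 (limma adjusted p = 7.43e-05) and GNAQ by 0.94 (limma adjusted p = 0.000969). ADCY5, an adenylyl cyclase that Gi proteins inhibit, was at 0.661 and 1.34 FPKM in the RD-ES controls and 20.8 and 26.9 FPKM in the SK-N-MC controls. Its RD-ES means, 0.999 FPKM in controls and 1.10 FPKM with eKD2, lay close to the filter. PLCB2, a phospholipase C, was at 6.29 and 5.12 against 69.2 and 74.2 FPKM (log2 difference 3.44, limma adjusted p = 0.000816). ADCY3, another cyclase, was at 13.9 to 29.9 FPKM and PLCB3 at 17.2 to 24.5 FPKM. Of 9 tested cyclases and phospholipases C, 4 were higher and 2 lower in the SK-N-MC controls, beside 31.4% and 26.4% of all tested genes. The lower ones were ADCY6 (log2 difference -0.63, limma adjusted p = 0.0133) and PLCB3 (log2 difference -0.42, limma adjusted p = 0.00955). The PLCB3 call was lost under 2 of 16 alternative settings. Of 6 tested genes that switch off activated receptors, 3 were lower in the SK-N-MC controls, beside 26.4% of all tested genes. The kinase GRK2 was at 58.2 to 77.8 FPKM. The arrestin ARRB1 differed by -0.72 (limma adjusted p = 0.00403), and the arrestin ARRB2 and the kinase GRK6 by -0.54 and -0.45, calls that were lost without SK-N-MC control replicate 2 for ARRB2 (adjusted p = 0.0646) and without RD-ES control replicate 1 (0.0704), RD-ES control replicate 2 or SK-N-MC control replicate 1 (0.0830) for GRK6.

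Several other neuropeptide precursors had larger log2 differences between lines than NPY or CCK. Of 7 tested, 4 were higher and 2 lower in the SK-N-MC controls, beside 31.4% and 26.4% of all tested genes. PENK, the precursor of the enkephalins, was at 12.0 and 11.9 FPKM in the RD-ES controls and 1166 and 1217 FPKM in the SK-N-MC controls (log2 difference 6.53, limma adjusted p = 2.14e-06), so in SK-N-MC it exceeded CCK. GRP, gastrin-releasing peptide, was at 36.6 and 53.2 against 411 and 430 FPKM (log2 difference 3.22, limma adjusted p = 3.36e-05). GAL, the galanin precursor, ran the other way, at 44.6 and 51.8 FPKM in the RD-ES controls and 1.30 and 2.46 FPKM in the SK-N-MC controls (log2 difference -4.12, limma adjusted p = 3.35e-05). NTS, which passed the filter only through SK-N-MC, and CALCB were higher and NMB lower in the SK-N-MC controls, and the hypothalamic partners of NPY, AGRP and CARTPT, were at 0. GCG, the precursor of GLP-1, a peptide that DPP4 cuts, was listed at 0 in all RD-ES libraries and at 1.22 to 2.98 FPKM in SK-N-MC.

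**Figure D4:**
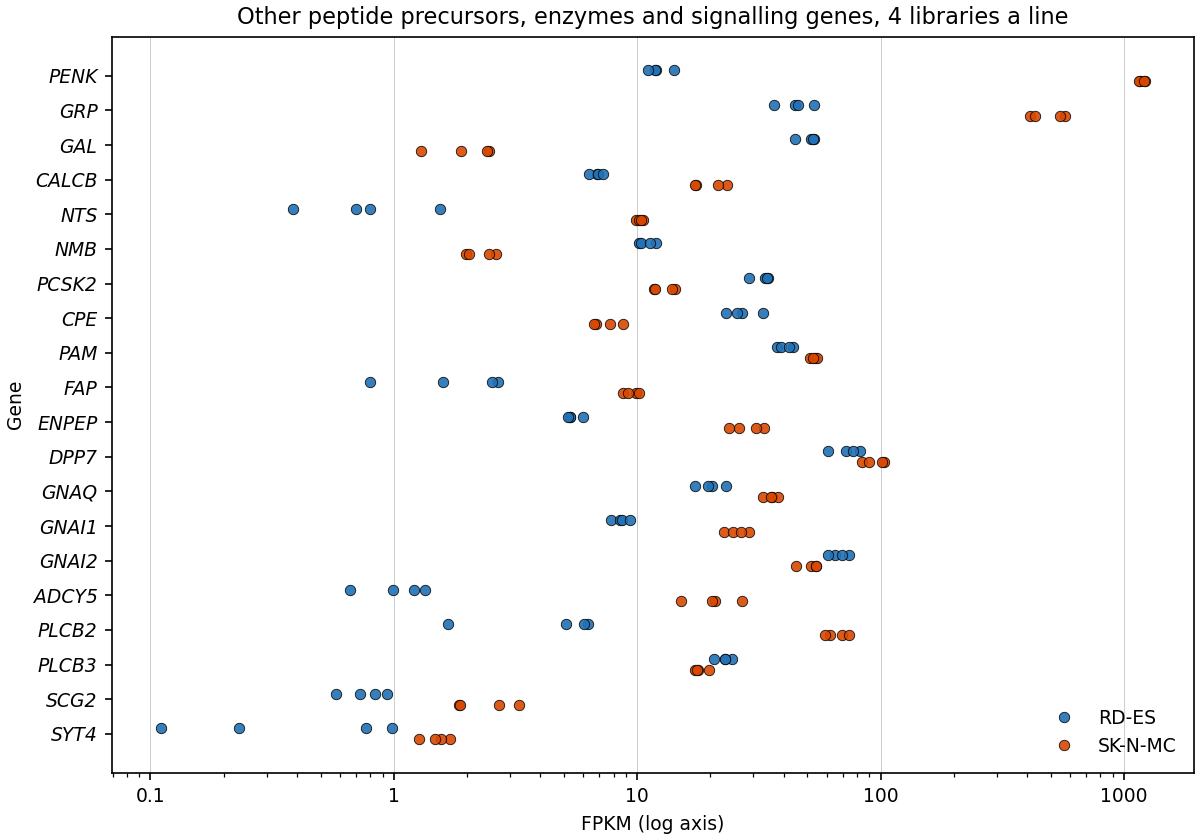
Levels of 20 genes around the peptides and their receptors, grouped from top to bottom as precursors, processing enzymes, peptidases, signalling and granule genes. The horizontal axis is FPKM on a log axis and each circle is 1 library, 4 in RD-ES (blue) and 4 in SK-N-MC (orange), control and eKD2 together; PENK separates the lines most, at 11.1 to 14.1 against 1156 to 1217 FPKM, and GAL is higher in RD-ES.

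The genes whose log2 levels ran closest to each member across the 8 libraries were taken from 11678 protein-coding candidates. They are given as a description, since both lines are among the points and the gap between lines enters each correlation. For CCK the closest genes were CDH4, ADRB3 and SLC17A7, with Pearson r of 0.999, 0.998 and 0.997. SLC17A7, a vesicular glutamate transporter, had a mean of 1.83 FPKM in RD-ES and 21.7 FPKM in SK-N-MC, and ADRB3, the beta-3 adrenergic receptor, 10.6 and 20.8 FPKM. For NPY5R they were SMAD7, RAD21 and HABP4 (r of 0.999 each), and for NPY1R TMEM267, CCDC14 and TMEM14A (r of 0.997 each), and all 6 were higher on average in SK-N-MC. For NPY they were ZNF395, NFYA and SNX29 (r of 0.982, 0.975 and 0.964). For DPP4, whose levels overlapped between lines, they were ETFBKMT, ERI2 and THAP9 (r of 0.981, 0.974 and 0.945).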

How the data were processed

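Poly(A) RNA of 8 libraries was prepared without strand information and sequenced as single-end reads of 75 bases. The authors aligned the reads with STAR to GRCh37 (hg19 per the labels' processing notes) and made FPKM values with Cufflinks and Cuffnorm, and the deposited table holds these FPKM values per gene. Counts are not in this table, so the study's own test on counts was replaced by one on a log scale. FPKM values were transformed as log2(FPKM + 1), and a fold on this scale understates the change of low genes. Genes whose average over all libraries reached 1 FPKM were fitted with limma 3.58.1 (R 4.3.3; lmFit, contrasts.fit and eBayes with trend) as 4 group means in 1 fit, with 5 comparisons, two-sided tests and Benjamini-Hochberg adjustment over all tested genes at 0.05. The script was tested on simulated data. Folds are ratios of group means of FPKM. Reads per gene and depth were estimated from the steps between low FPKM values of genes with 1 transcript, taking an effective length of the transcript minus 199 bases, and 84.8% to 87.5% of such genes at 1 to 5 reads came within 5% of a read of a whole number. These reads were not used for a count test, since steps are not known for genes with several transcripts. Gene positions come from GENCODE lifted to GRCh37, and repeats were searched in the GRCh37 genome with pysam 0.24.0. Alternatives were another pseudocount (0.1), no filter or one at 5 FPKM, median scaling, quantile normalization, only the compared groups, no trend, the replicate number as a block and leaving out each library. The genes and the list of 84 related genes were chosen with earlier results of these data known. Named were all 6 members, LOXHD1 as target, the most abundant 3 genes of each role in the list, and per member the 3 genes of highest correlation. Other genes of the list, among them GCG, FAP, ENPEP, XPNPEP2, MME, QPCT, PCSK1N, ADCY5, ADCY6, GNAI1, GNAI3, NTS, NMB, CALCB, TPST1, ARRB1, PCSK1, CHGB, AGRP and CARTPT, were named after their values were seen. Some marker genes are not reported here.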

Additional observations from a re-analysis of the deposited data

How the results depend on the processing

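With 2 libraries per group, the counts of members called were within 1.5 times of the reported value under every alternative run. No member was called with eKD2 in either line, or for the difference between lines, under any alternative. CCK, NPY1R and NPY5R differed between lines under all alternatives, among control and among eKD2 libraries, and NPY is described with the results. The samples of both groups carry replicate numbers, but same-numbered libraries did not deviate together (correlation of deviations 0.0560 for RD-ES and 0.0274 for SK-N-MC, 2 pairs). With the replicate number as a block, calls over all genes fell from 52 to 11 in RD-ES, from 49 to 5 in SK-N-MC and from 37 to 7 for the difference between lines, and no call on a member changed. Without the filter on low values the calls were 79, 118 and 66 in the same order, and with only the compared groups in the fit 28 for RD-ES and 11 for SK-N-MC. With 1 library left out, they ranged from 27 (without SK-N-MC control replicate 2) to 75 (without RD-ES eKD2 replicate 2) for RD-ES and from 12 (without either RD-ES control) to 78 (without SK-N-MC eKD2 replicate 1) for SK-N-MC. For the difference between lines they ranged from 55 (without RD-ES control replicate 2) to 87 (without SK-N-MC eKD2 replicate 1). The cause was not tested.

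Directions turned only for differences that had not passed. Leaving out 1 library at a time, eKD2 minus control in RD-ES ranged from -0.29 to 0.18 for NPY1R, from -0.029 to 0.20 for NPY5R and from -0.12 to 0.45 for DPP4, and in SK-N-MC from -0.23 to 0.21 for NPY. NPY1R turned without RD-ES control replicate 1 (0.084) or RD-ES eKD2 replicate 2, NPY5R without RD-ES control replicate 2, DPP4 without RD-ES eKD2 replicate 1, and NPY without SK-N-MC control replicate 1 (0.14) or SK-N-MC eKD2 replicate 1. The difference between lines of the eKD2 change ranged from -0.027 to 0.44 for NPY1R, turning without RD-ES eKD2 replicate 2, and was 0.42 for LOXHD1 with a pseudocount of 0.1. DPP4 among eKD2 libraries, SK-N-MC minus RD-ES, was -0.025 with median scaling and -0.095 with quantile normalization, and ranged from -0.27 to 0.30 with 1 library left out, turning without RD-ES eKD2 replicate 2 or SK-N-MC eKD2 replicate 1 (-0.12). The cause was not tested. Depth limited NPY, NPY2R, DPP4 and, in RD-ES, NPY5R, whose reads per library were few, and RD-ES eKD2 replicate 1 most.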
